A study of Arabidopsis thaliana with 12 samples.

Results

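Messenger RNA was compared between rdd plants grown in soil with YC4-R4 and Col-0 plants grown in regular soil, which are 6 of the 12 libraries of the series, 3 on each side. All were whole Arabidopsis thaliana plants, 2 weeks old. Col-0 is the reference accession, and rdd is a line in the Col-0 background mutated in ROS1, DML2 and DML3, which encode DNA demethylases. YC4-R4 is a soil treatment given by its code name, and the series title speaks of beneficial bacteria of the root zone and of myo-inositol. The other groups, Col-0 in YC4-R4 soil and rdd in regular soil, entered the same model and are quoted for their levels. Genotype and soil differ together between the groups compared, so that neither can be told apart from the other here. The same holds for any difference in growth or harvest that all libraries of a group shared. The groups are called rdd YC4-R4 and Col-0 control below, and the other groups Col-0 YC4-R4 and rdd control.

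ROS1, DML2 and DML3 belong with DME to a small family of DNA glycosylases that cut out 5-methylcytosine, after which unmethylated cytosine is filled in. Without them some promoters near transposons or repeats gain methylation, and the best studied case in leaves is EPF2, a peptide gene that limits the number of stomatal precursor cells. Plants that meet microbes are also known for fast and broad changes in immune, touch-responsive and hormone genes. These change within minutes to hours and share calcium-dependent steps.

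The mutated genes were read first, as a check of the labels. In TAIR10.1 DML3 (AT4G34060) lies on chromosome 4, 16313366 to 16319426, and it measured 4.50, 5.89 and 4.53 CPM (the gene's counts scaled to a common library size with TMM factors) in the Col-0 control libraries and 0.953, 0.267 and 0.577 CPM in the rdd YC4-R4 libraries. The groups did not overlap, and the log2 fold change of rdd YC4-R4 over Col-0 control was -3.07 ± 0.28 (SE; edgeR's quasi-likelihood test, with p adjusted by Benjamini and Hochberg's method = 1.4e-11). DML2 stood at 20.4, 19.7 and 19.6 CPM against 13, 13.9 and 13.6 CPM, a log2 fold change of -0.56 ± 0.09 (adjusted p = 1.5e-06), again without overlap. ROS1 differed less, with 86.1, 81.5 and 78.3 CPM against 72.7, 76.1 and 74.7 CPM (log2 fold change -0.14 ± 0.05, adjusted p = 0.0142). The ROS1 call was lost without Col-0 control replicate 1 (adjusted p = 0.121). DME, which is not mutated in rdd, stood at 79.3, 72.9 and 70.6 CPM against 66.7, 74.4 and 68 CPM and was not called (log2 fold change -0.09 ± 0.05, adjusted p = 0.144), though it was called without rdd YC4-R4 replicate 2 (adjusted p = 0.0279). Counts over a whole gene may stay up if a mutated gene is still transcribed in part. The other groups did not follow their genotype labels, since DML3 stood at 0.775 ± 0.403 CPM (SD, n = 3) in Col-0 YC4-R4 and at 3.52 ± 0.137 CPM in rdd control. Both are named by their labels throughout, and their levels are given only as those of libraries so labelled. The low DML2 and DML3 levels in rdd YC4-R4 and the higher levels in Col-0 control go with the genotype labels of the groups compared here. They go with the soil labels as well, so that they do not check the genotype labels alone.

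Of 20651 genes tested, 8155 were called (39.5% at an adjusted p under 0.05), 3823 of them higher in rdd YC4-R4 (18.5%) and 4332 lower (21.0%). Most of these changes were small, the median size of the log2 change being 0.36 among called genes, with a median of 0.01 over all tested genes. Changes of 2-fold or more were called for 1053 genes (5.10%), and here the lower ones led by 800 (3.87%) to 253 (1.23%). At 4-fold or more there were 204 lower and 26 higher genes, and at 8-fold or more 62 and 6. The 6 libraries held 16351870 to 20281801 counts. The spread within groups was wider in rdd YC4-R4, with a biological coefficient of variation of 5.81% against 3.07% in Col-0 control, and these p-values measure the spread between libraries, described in the series design as biological replicates. The CPM of a gene did not overlap between the groups for 9704 genes (47.0%). Lack of overlap in any single named gene is to be read against this share.

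**Figure D1:**
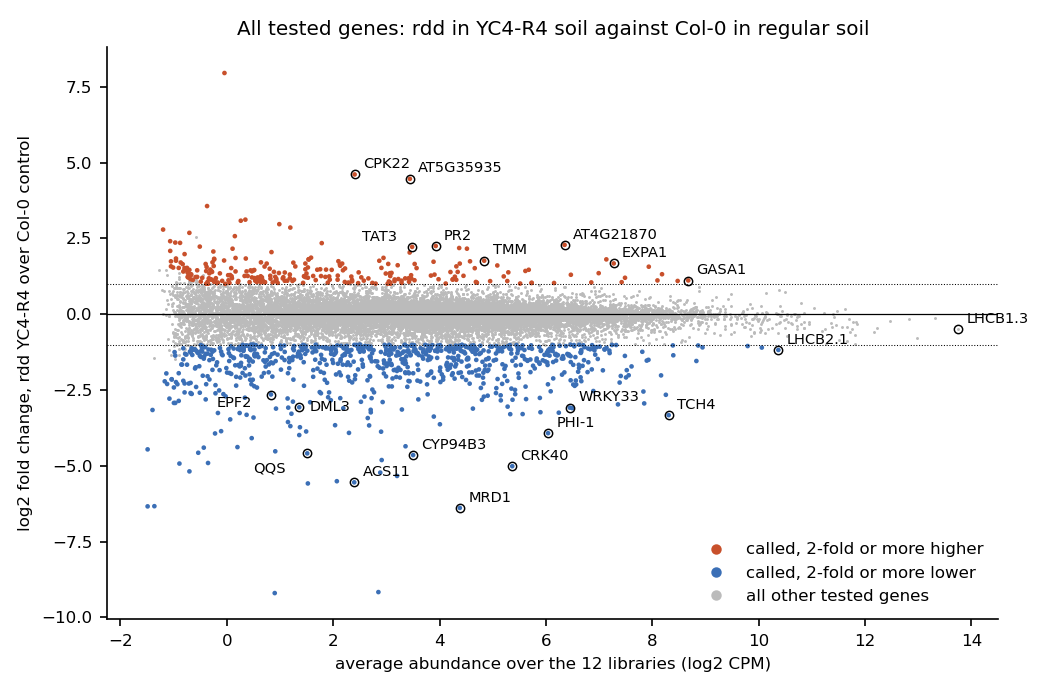
Each point is 1 of the 20651 tested genes, with its average abundance over the 12 libraries in log2 CPM on the x axis and the log2 fold change of rdd YC4-R4 over Col-0 control on the y axis; orange and blue mark the 253 higher and 800 lower genes called at 2-fold or more, and dotted lines mark 2-fold. The lower genes reach further from 0 than the higher ones, and fitted values beyond about 8-fold of genes with few counts depend on the model's prior count.

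Among genes with an average log2 CPM of at least 1 and no overlap between the groups, the 12 highest fold changes were led by a kinase gene and a pseudogene with low levels in Col-0 control. CPK22 (AT4G04710, chromosome 4, 2390307 to 2392989), annotated as like a calcium-dependent protein kinase, stood at 0.414, 0.449 and 0.302 CPM in Col-0 control and 9.05, 9.99 and 10.05 CPM in rdd YC4-R4 (log2 fold change 4.61 ± 0.23, adjusted p = 6.0e-19). The pseudogene AT5G35935 (chromosome 5, 14083388 to 14089891) stood at 1.09, 1.12 and 0.483 CPM against 17.8, 21.3 and 21.5 CPM (log2 fold change 4.47 ± 0.17). Both genes were also high in Col-0 YC4-R4 (9.75 ± 1.19 and 20.4 ± 2.49 CPM) and low in rdd control (0.648 ± 0.340 and 1.15 ± 0.321 CPM). AT4G21870, which encodes a chaperone-like protein of the HSP20 superfamily, was the most abundant of these 12 genes, at 15.9, 17.2 and 21.1 CPM against 85.6, 89.2 and 88.5 CPM (log2 fold change 2.29 ± 0.07). The others were the uncharacterized gene AT5G41761 (2.86 ± 0.28), the glutamine amidotransferase-like gene GAT1_2.1 (2.35 ± 0.24), PR2 (2.25 ± 0.12), TAT3 (2.22 ± 0.12), AT1G78170 (2.19 ± 0.09), the pseudogene AT4G04410 (2.16 ± 0.07), the abscisic acid receptor gene PYL6 (2.04 ± 0.14), the receptor-like protein gene RLP41 (1.87 ± 0.21) and AT1G16500 (1.86 ± 0.13). GAT1_2.1 overlaps the tested gene AT1G15030, and its count is uncertain to that extent. The largest adjusted p among these 12 genes was 3.3e-09, for RLP41.

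By the same limits the 12 lowest fold changes included genes of stress signalling, hormone metabolism and receptor kinases. CRK40 (AT4G04570, chromosome 4, 2288616 to 2292965), a cysteine-rich receptor-like kinase, stood at 92.1, 96.9 and 93.9 CPM in Col-0 control and 4.05, 2.19 and 2.64 CPM in rdd YC4-R4 (log2 fold change -5.01 ± 0.09, adjusted p = 6.6e-32). DDF1, a transcription factor gene related to the CBF cold regulators, stood at 23.7, 23.2 and 22.6 CPM against 0.714, 0.267 and 0.721 CPM (-5.33 ± 0.19). ACS11, which encodes a rate-limiting enzyme type of ethylene synthesis, stood at 13.1, 15.1 and 15 CPM against 0.179, 0.427 and 0.289 CPM (-5.54 ± 0.21). Lack of overlap was a condition for these 12 genes, and 47.0% of all tested genes met it. AT1G33760, annotated with the same DNA-binding domain type as DDF1, was at -5.22 ± 0.16, the abscisic acid and salt response gene RAS1 at -4.81 ± 0.22 and SRO5 at -4.35 ± 0.16. MRD1 stood at 34.9, 37.3 and 36.7 CPM against 0.417, 0.481 and 0.385 CPM (-6.39 ± 0.15), AT3G47965 was at -5.58 ± 0.36 and AT2G17660, of the RIN4 family, at -5.51 ± 0.24. MRD1 overlaps HEI10, SRO5 overlaps ALDH12A1 and AT2G17660 overlaps AT2G17650, all of them tested, so that these counts are uncertain. CYP94B3 and QQS are described with their lists and the pseudogene AT4G17450 below. The largest adjusted p of the 12 was 1.6e-15, for AT3G47965.

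Other loci were at or near 0 counts on one side. The pseudogene AT4G17450 (chromosome 4, 9732817 to 9737316) had 764 counts over the Col-0 control libraries and 1 over those of rdd YC4-R4. Scaled to library size their ratio was 801, with a 95% interval of 143 to 31669 that covers counting error only. The noncoding RNA gene AT2G01422 had 221 counts against 0, so that it was at least 77.2-fold lower if the summed rdd YC4-R4 libraries are put at 3 counts, about the upper 95% limit for a count of 0. This limit covers counting error only. In the opposite direction the pseudogene AT3G61330 had 0 counts against 98 and was at least 31.2-fold higher in the same way. AT4G17450 and AT2G01422 also had 0 CPM in all Col-0 YC4-R4 libraries, and AT3G61330 had 0 CPM in all rdd control libraries. By annotated type, 49.2% of 130 pseudogenes, 24.4% of 123 transcribed pseudogenes and 39.6% of 19923 protein-coding genes were called.

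The 8 most abundant genes changed 2-fold or more included antenna genes of photosystem II. LHCB2.1, LHCB2.2 and LHCB2.3 are described with the photosystems and TCH3 with the touch genes. BT2, a scaffold protein gene of sugar and stress responses, stood at 716, 694 and 683 CPM against 332, 364 and 329 CPM (log2 fold change -1.03 ± 0.04, adjusted p = 4.6e-23). AT1G79245, annotated as a transcribed pseudogene, was at -1.05 ± 0.03 and AT4G32020 at -1.03 ± 0.03. GASA1, a gibberellin-regulated peptide gene, was the only one of the 8 that was higher, at 256, 252 and 268 CPM against 592, 540.2 and 549 CPM (1.11 ± 0.04, adjusted p = 1.3e-23).

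Of 10 tested genes of the stomatal lineage 7 were called higher and 1, the inhibitor gene EPF2, lower, with a median log2 fold change of 0.93. By comparison 18.5% of all tested genes were called higher and 21.0% lower. EPF2 (AT1G34245, chromosome 1, 12472868 to 12473974), whose peptide restricts entry into the lineage, stood at 2.33, 2.80 and 2.66 CPM in Col-0 control and 0.238, 0.481 and 0.481 CPM in rdd YC4-R4 (log2 fold change -2.65 ± 0.30, adjusted p = 4.8e-09). SPCH, the transcription factor that starts the lineage, stood at 3.00, 4.43 and 3.02 CPM against 10.2, 10.3 and 9.66 CPM (1.53 ± 0.14, adjusted p = 2.9e-11). TMM, the receptor-like protein that takes part in reading such peptides, stood at 12, 13 and 11.1 CPM against 39.6, 42.2 and 40.9 CPM (1.77 ± 0.07, adjusted p = 8.1e-22). None of the 3 genes overlapped between the groups, EPF2 being lower and SPCH and TMM higher in every rdd YC4-R4 library. Such lack of overlap was found for 47.0% of all tested genes. The protease gene SDD1 (1.15 ± 0.10), the polarity genes BASL (1.04 ± 0.18) and POLAR (1.05 ± 0.12, overlapping AT4G31810) and the later factors MUTE (0.82 ± 0.22) and FAMA (0.32 ± 0.07) were also called higher, with FAMA changing least. EPF1, a peptide gene that acts later in the lineage, and EPFL9, which encodes the opposing peptide stomagen, were not called (0.19 ± 0.21 and -0.03 ± 0.09, adjusted p = 0.519 and 0.831). In whole plants a larger number of lineage cells and more RNA per cell cannot be told apart. Levels in Col-0 YC4-R4 were on the side of rdd YC4-R4 for EPF2 (0.345 ± 0.195 CPM) and TMM (44.3 ± 2.13 CPM), and those in rdd control on the side of Col-0 control (3.38 ± 0.305 and 16.6 ± 0.679 CPM).

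EPF2 also belongs to a list of loci known to change expression with DNA methylation, of which 4 were tested. QQS, a starch-related gene found only in Arabidopsis thaliana and known for natural epialleles, stood at 4.70, 6.73 and 7.07 CPM in Col-0 control and 0.119, 0.267 and 0.337 CPM in rdd YC4-R4 (log2 fold change -4.59 ± 0.29, adjusted p = 8.5e-16). The allantoinase gene ALN went the other way, from 30.9, 33.9 and 29.7 CPM to 42, 45.6 and 39.3 CPM (0.42 ± 0.06, adjusted p = 5.0e-07). PHE1, imprinted in seed tissue, was not called (0.51 ± 0.40, adjusted p = 0.334). Among 22 genes of the methylation and demethylation machinery itself 3 were higher and 4 lower, with DRD1 changing most, and 15 were not called. These 7 called members are a smaller share than the 39.5% over all tested genes. The lower ones included NRPE1, the largest subunit of RNA polymerase V (-0.30 ± 0.08), and AGO4, which binds the small RNAs of this pathway (-0.19 ± 0.05), and the higher ones included the chromatin remodeller gene DRD1 (0.41 ± 0.08). IDM1, a histone acetyltransferase gene that helps target ROS1, was higher by 0.19 ± 0.06, a call lost without Col-0 control replicate 3 or rdd YC4-R4 replicate 3 (adjusted p = 0.112 and 0.101). Without Col-0 control replicate 1, and also with DESeq2, 2 and not 4 members were lower.

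**Figure D2:**
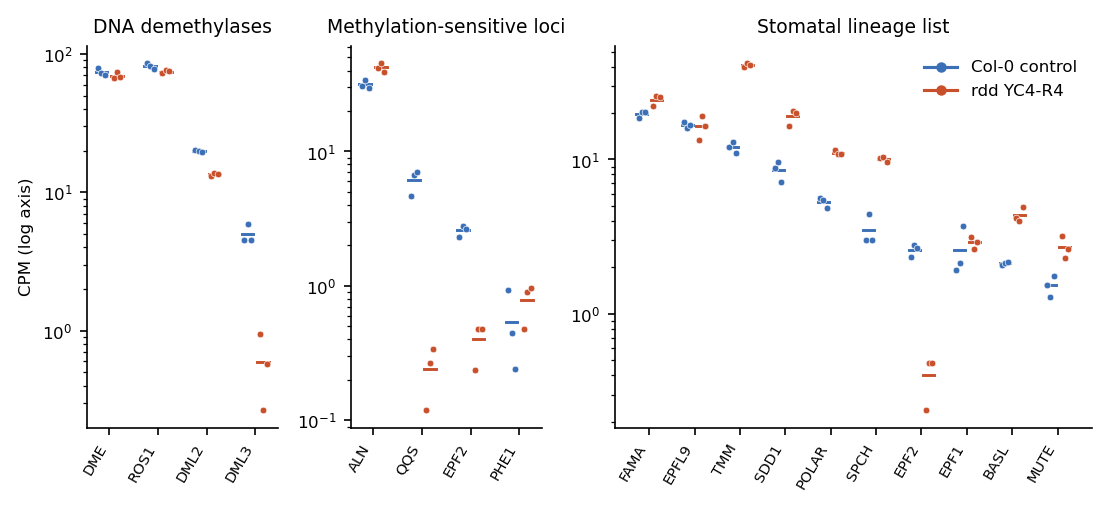
CPM on a log axis in each of the 3 Col-0 control libraries (blue) and the 3 rdd YC4-R4 libraries (orange), with a bar at the mean, for the demethylase genes, loci known to change with methylation and the stomatal lineage list. DML3, QQS and EPF2 lie lower in every rdd YC4-R4 library, while TMM, SDD1, POLAR, SPCH, BASL and MUTE lie higher in every one.

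All 13 genes of the touch and rapid stress list were called lower in rdd YC4-R4, each by 2-fold or more, with a median log2 fold change of -2.32. The list was chosen with earlier results of these data known, and 3.87% of all tested genes were called 2-fold or more lower. TCH4 (AT5G57560, chromosome 5, 23307006 to 23308680), which encodes a xyloglucan-modifying wall enzyme and is named for its induction by touch, stood at 661, 652 and 633 CPM in Col-0 control and 66.7, 62.1 and 64.9 CPM in rdd YC4-R4 (log2 fold change -3.33 ± 0.04, adjusted p = 3.7e-37). The calmodulin-like gene TCH2 stood at 173, 170 and 181 CPM against 62.1, 50.5 and 52.7 CPM (-1.67 ± 0.05, adjusted p = 5.7e-25) and its relative TCH3 at 561, 576 and 598 CPM against 196, 203 and 197 CPM (-1.54 ± 0.04, adjusted p = 2.7e-28). For all 3 the groups lay far apart compared with the spread within them. CML37 (-3.10 ± 0.17) and CML38 (-3.05 ± 0.08) are further calcium sensors of this kind. Among the transcription regulators, the zinc finger gene SZF1 stood at 557, 583 and 572 CPM against 85.2, 68.6 and 69.6 CPM (-2.94 ± 0.06). MYB44 was at -2.53 ± 0.05, ERF6 at -2.67 ± 0.07, ERF104 at -2.32 ± 0.05, ERF5 at -1.93 ± 0.10, ZAT10 at -1.91 ± 0.07, ZAT12 at -1.47 ± 0.09 and SZF2 at -1.45 ± 0.05. The summed level of the list was 2904 to 2965 CPM in the Col-0 control libraries and 590 to 651 CPM in those of rdd YC4-R4. Levels in the other groups lay between these for TCH4 (Col-0 YC4-R4 311 ± 5.09 CPM, rdd control 244 ± 6.54 CPM) and MYB44 (129 ± 3.08 and 80.6 ± 3.58 CPM). For TCH3 rdd control stood at 623 ± 17.8 CPM, near Col-0 control, and for ERF104 Col-0 YC4-R4 stood at 28 ± 1.77 CPM, below rdd YC4-R4.

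The list of pattern-triggered immunity, the layer of defence set off by microbial molecules at the cell surface, had 14 of 21 members lower and 2 higher, with a median log2 fold change of -0.54. Over all tested genes the shares were 21.0% lower and 18.5% higher. PHI-1 (AT1G35140, chromosome 1, 12851983 to 12853235), annotated as a phosphate-responsive family protein, stood at 127, 127 and 127 CPM in Col-0 control and 7.56, 8.38 and 9.09 CPM in rdd YC4-R4 (log2 fold change -3.92 ± 0.06, adjusted p = 2.3e-33). The kinase gene MPK3, which relays the signal, stood at 339, 344 and 328 CPM against 86.3, 77.5 and 82.7 CPM (-2.04 ± 0.04, adjusted p = 3.6e-30). WRKY33, a regulator of camalexin synthesis, stood at 235, 246 and 256 CPM against 28.8, 32.1 and 26.4 CPM (-3.08 ± 0.07, adjusted p = 2.2e-29). No rdd YC4-R4 library reached the level of any Col-0 control library in these 3 genes. Such separation, in either direction, held for 47.0% of all tested genes. RBOHD, the oxidase of the immune oxygen burst, was at -1.90 ± 0.05, the chitin receptor kinase gene LYK5 at -1.94 ± 0.09, WRKY22 at -2.09 ± 0.07, WRKY40 at -2.82 ± 0.07 and MYB51 at -2.02 ± 0.07. The danger-peptide receptor gene PEPR1 was at -0.99 ± 0.05.

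Receptors of bacterial patterns did not share this decrease. The flagellin receptor gene FLS2 (AT5G46330) was higher, at 27.7, 22 and 24.1 CPM against 38, 41.9 and 39.2 CPM (0.69 ± 0.06, adjusted p = 4.4e-11), as was WRKY29 (0.79 ± 0.16, adjusted p = 1.5e-04). EFR, which reads elongation factor Tu, was not called (-0.03 ± 0.13, adjusted p = 0.878), nor were the chitin receptor gene CERK1 (0.07 ± 0.06, adjusted p = 0.359) and MPK6, a kinase that acts beside MPK3 (0.03 ± 0.05, adjusted p = 0.676). The shared co-receptor gene BAK1 was lower by a small amount (-0.16 ± 0.05), a call lost without rdd YC4-R4 replicate 2 (adjusted p = 0.0682). FLS2 stood higher still in the other groups, Col-0 YC4-R4 at 55.3 ± 1.76 CPM, rdd control at 80.1 ± 2.27 CPM. WRKY33, WRKY40, FLS2 and BAK1 overlap another tested gene, which leaves part of their counts uncertain.

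**Figure D3:**
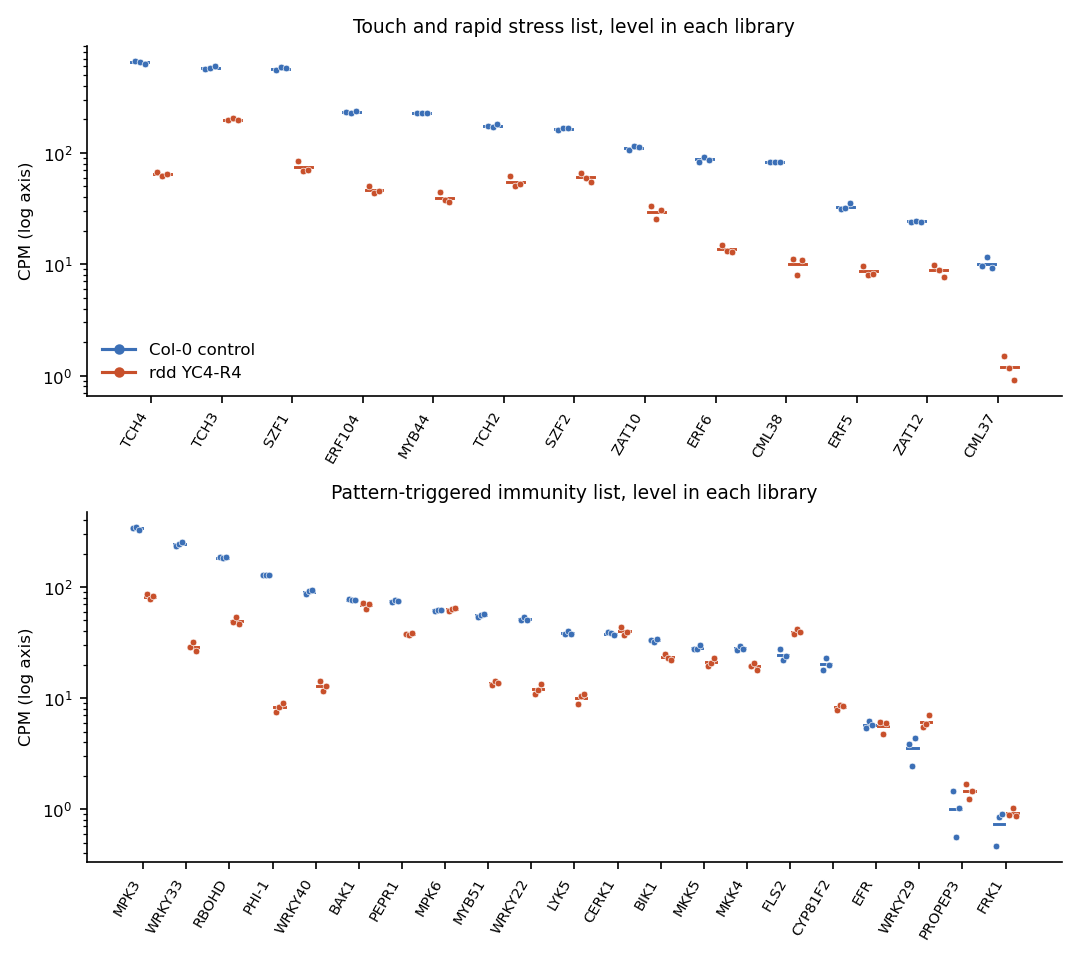
CPM on a log axis in each of the 3 Col-0 control libraries (blue) and the 3 rdd YC4-R4 libraries (orange), with a bar at the mean, for all tested members of the touch and rapid stress list (top) and the pattern-triggered immunity list (bottom). In the touch list every gene is lower in every rdd YC4-R4 library, and in the immunity list FLS2 and WRKY29 are higher.

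Of the 30 salicylic acid genes, 14 were called lower and 4 higher (median log2 fold change -0.37). Over all tested genes the shares were 21.0% and 18.5%. The regulators named here and the outputs PR2 and PR5 went different ways. WRKY70 (AT3G56400, chromosome 3, 20908711 to 20910623), a transcription factor of salicylic acid signalling, stood at 216, 221 and 218 CPM in Col-0 control and 53.8, 44.3 and 47 CPM in rdd YC4-R4 (log2 fold change -2.18 ± 0.06, adjusted p = 2.5e-27). CBP60G and SARD1, related calmodulin-binding-type regulators of salicylic acid synthesis genes, were at -1.92 ± 0.07 and -1.996 ± 0.095, and WRKY53 and WRKY46 at -2.07 ± 0.08 and -1.92 ± 0.13. The receptor gene NPR3 was at -1.34 ± 0.05, EDS1 at -0.62 ± 0.06 and PAD4 at -0.89 ± 0.09, the last pair encoding partner proteins of intracellular immunity. The synthesis gene ICS1 stood at 12.1, 11.6 and 10.4 CPM against 12.1, 11.7 and 11.2 CPM and was not called (0.02 ± 0.10, adjusted p = 0.866). The output genes PR2 and PR5 were higher, PR2 at 6.15, 5.27 and 6.04 CPM against 33.2, 24.4 and 26.1 CPM (2.25 ± 0.12, adjusted p = 3.0e-18) and PR5 at 3.41, 3.25 and 4.95 CPM against 13.8, 10.9 and 11.9 CPM (1.66 ± 0.13, adjusted p = 5.5e-13). PR5 had no overlap between the groups, as was so for 47.0% of all tested genes. For PR2 this was a condition of choice. PR1, the usual marker of this pathway, stayed under 1 CPM in all 6 libraries and was not called (-0.57 ± 0.48, adjusted p = 0.374). SARD1 and WRKY53 overlap another tested gene. The number of higher members was 2 in place of 4 without Col-0 control replicate 3, and also with DESeq2, and the median moved to -0.23 without Col-0 control replicate 1.

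Promoters were searched for 5 short motifs, of which CGCGTT had the largest ratio between lower genes and all tested genes. The windows were the 250 bases before each annotated start, and both strands were searched for TTGAC (the core of the W-box bound by WRKY factors), CACGTG (the G-box), AAAATATCT (the evening element), CGCGTT (the rapid stress element, which CAMTA factors bind) and GCCGCC (the GCC box bound by ERF factors). CGCGTT was present in 2.85% of 20501 promoters, in 8.85% of the 791 promoters of genes 2-fold or more lower and in 1.58% of the 253 promoters of genes 2-fold or more higher. TTGAC was present in 45.2%, 54.5% and 45.8% in the same order, CACGTG in 7.24%, 9.99% and 8.30%, AAAATATCT in 2.47%, 4.42% and 1.58%, and GCCGCC in 1.94%, 2.91% and 2.37%. These shares are descriptions, and a match is not a known binding site. Of the 13 touch genes 1 had CGCGTT, namely TCH2. List members that were 2-fold or more lower with CGCGTT in this window included PHI-1, LOX4, CBF2, HSP70, TCH2 and PS2, and none of these windows reached into another annotated gene. The windows of the 3 with the lowest fold changes and of TCH2, which has more than 1 match, are shown, from RefSeq's TAIR10.1 assembly, 5′ to 3′ on the gene's strand, with CGCGTT or its reverse complement in capitals. In TCH2 matches on both strands overlap. They lie at chr1:12851733-12851982 (plus strand), chr1:27308263-27308512 (plus), chr4:13016236-13016485 (minus) and chr5:14999620-14999869 (minus).
PHI-1: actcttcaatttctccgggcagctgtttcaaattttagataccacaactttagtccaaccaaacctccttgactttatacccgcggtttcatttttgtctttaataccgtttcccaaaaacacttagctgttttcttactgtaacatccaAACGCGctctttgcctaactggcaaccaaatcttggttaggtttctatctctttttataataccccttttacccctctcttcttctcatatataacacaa
LOX4: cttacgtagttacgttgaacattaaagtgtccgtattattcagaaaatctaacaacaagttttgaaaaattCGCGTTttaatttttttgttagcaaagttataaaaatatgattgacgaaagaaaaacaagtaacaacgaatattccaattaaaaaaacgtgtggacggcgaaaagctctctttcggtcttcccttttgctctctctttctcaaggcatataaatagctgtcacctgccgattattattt
CBF2: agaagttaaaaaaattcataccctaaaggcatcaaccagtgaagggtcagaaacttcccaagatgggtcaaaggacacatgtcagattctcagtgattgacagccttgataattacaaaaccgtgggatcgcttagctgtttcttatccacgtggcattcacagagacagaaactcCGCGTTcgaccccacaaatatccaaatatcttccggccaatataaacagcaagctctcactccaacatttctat
TCH2: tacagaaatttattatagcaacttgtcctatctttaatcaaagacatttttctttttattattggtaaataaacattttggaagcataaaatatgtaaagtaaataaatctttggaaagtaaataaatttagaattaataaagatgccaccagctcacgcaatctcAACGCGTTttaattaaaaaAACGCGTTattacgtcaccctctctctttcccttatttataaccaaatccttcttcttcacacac

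Jasmonate genes were called in both directions. The wound-type lipoxygenase genes LOX3 and LOX4, which start the synthesis of jasmonate, were lower, LOX4 (AT1G72520) at 92.2, 93.4 and 91.4 CPM in Col-0 control against 10.4, 8.65 and 9.33 CPM in rdd YC4-R4 (log2 fold change -3.29 ± 0.06, adjusted p = 2.7e-31) and LOX3 at 74, 70.5 and 67.9 CPM against 23.2, 24.2 and 23.3 CPM (-1.59 ± 0.05, adjusted p = 8.2e-24). LOX2, the abundant chloroplast enzyme of leaves, was higher by 0.34 ± 0.04. The later synthesis genes OPCL1 (-1.58 ± 0.05), AOC3 (-1.31 ± 0.08), OPR3 (-0.56 ± 0.04) and AOS (-0.35 ± 0.04) were lower, and AOC1 (0.48 ± 0.06) higher, the AOC genes being similar copies with uncertain counts. In all, 4 of 13 synthesis genes were higher and 6 lower, against 18.5% and 21.0% of all tested genes. CYP94B3, which hydroxylates the active hormone jasmonoyl-isoleucine, stood at 22, 22.3 and 21.6 CPM against 1.13, 0.908 and 0.625 CPM (-4.64 ± 0.14, adjusted p = 3.5e-25). It stood between these in the other groups, with Col-0 YC4-R4 at 16.1 ± 0.783 CPM, rdd control at 6.33 ± 0.451 CPM. CYP94C1, which oxidizes the hormone further, fell by a smaller amount (-1.15 ± 0.12, adjusted p = 2.1e-10), while the other groups stood far higher, at 41.2 ± 1.18 and 49.5 ± 3.28 CPM against 8.97 ± 0.444 CPM in Col-0 control and 4.03 ± 0.597 CPM in rdd YC4-R4. The methyltransferase gene JMT (0.88 ± 0.15) and the oxygenase genes AT5G05600 (0.68 ± 0.08) and AT2G38240 (1.54 ± 0.40) were higher.

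The JAZ genes encode repressors that are themselves induced by jasmonate. JAZ7 stood at 12.6, 12.5 and 14.7 CPM against 1.25, 1.71 and 1.49 CPM (-3.14 ± 0.14, adjusted p = 2.8e-20), JAZ8 was at -2.84 ± 0.22, JAZ5 at -1.87 ± 0.10 and JAZ1 at -1.26 ± 0.05. JAZ2 and JAZ4 were not called (-0.01 ± 0.05 and 0.15 ± 0.30, adjusted p = 0.88 and 0.726). MYC2, the main transcription factor of the pathway, was lower (-1.09 ± 0.06), although its count is uncertain where it overlaps AT1G32630. Its storage and metabolic outputs were higher, namely VSP1 at 37.8, 37.7 and 33.1 CPM against 87, 64.4 and 71.5 CPM (1.03 ± 0.07, adjusted p = 1.5e-14), VSP2 (0.55 ± 0.04), CORI3 (0.59 ± 0.05) and TAT3, at 3.93, 3.42 and 5.19 CPM against 19.5, 18.7 and 19.955 CPM (2.22 ± 0.12, adjusted p = 3.5e-18). Of the 22 signalling and output genes 7 were higher and 10 lower, against 18.5% and 21.0% of all tested genes. In the defence branch shared with ethylene, ORA59 was higher (1.60 ± 0.18, adjusted p = 4.1e-09), as were PR4 (0.55 ± 0.08) and PR3 (0.34 ± 0.09). ERF1 was not called (0.04 ± 0.44, adjusted p = 0.96) and changed sign in 3 of the 12 alternative fits.

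Ethylene genes were also called in both directions. The synthase genes ACS11 and ACS6 were lower, ACS6 at 159.5, 166 and 164 CPM in Col-0 control against 30.1, 21.4 and 21.3 CPM in rdd YC4-R4 (log2 fold change -2.76 ± 0.07, adjusted p = 2.5e-27). ACS4 (1.41 ± 0.34) and ACO4, whose product makes the final step (0.49 ± 0.04), were higher. The receptor genes ETR2 (0.71 ± 0.14), ERS1 (0.46 ± 0.05) and EIN4 (0.27 ± 0.06), the kinase gene CTR1 (0.36 ± 0.05) and the feedback gene EBF2 (0.67 ± 0.04) were higher by small amounts. Among all 20 tested members 7 were higher and 3 lower, against 18.5% and 21.0% of all tested genes.

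Nuclear genes of the photosystems and their antennae were lower in 32 of 33 cases, by modest amounts (median log2 fold change -0.48). Among all tested genes 21.0% were called lower. LHCB2.1, an antenna protein gene of photosystem II, stood at 1884, 2029.9 and 2049.5 CPM in Col-0 control and 909.5, 851 and 877 CPM in rdd YC4-R4 (log2 fold change -1.18 ± 0.05, adjusted p = 4.7e-22). LHCB2.2 was at -1.10 ± 0.04, LHCB2.3 at -1.09 ± 0.04, LHCB1.1 at -0.99 ± 0.05 and LHCB1.2 at -0.99 ± 0.04. These are families of near-identical copies, in which reads may be split or lost. Among the core subunits PSAH2 and PSAG of photosystem I were at -0.57 ± 0.05 and -0.54 ± 0.05, and PSBO2, a subunit of the oxygen-evolving complex, changed least of the lower members (-0.16 ± 0.03). LHCB2.3 and PSAH2 overlap another tested gene. The exception was LHCB4.3, at 33.1, 32.5 and 34.2 CPM against 59.5, 49.1 and 51.7 CPM (0.68 ± 0.06, adjusted p = 2.8e-11), with higher values in every rdd YC4-R4 library. The list as a whole summed to 116521 to 122465 CPM in Col-0 control and 79814 to 83469 CPM in rdd YC4-R4. Because this is a large share of each library, the scaling between libraries matters, and with DESeq2 size factors in place of TMM the median log2 fold change over all genes moved by -0.01. Both scalings take most genes as unchanged, so that this does not test the assumption. The TMM factors were 0.941 to 0.954 in Col-0 control and 1.028 to 1.036 in rdd YC4-R4.

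Genes of the Calvin cycle, which fixes carbon, were lower in 5 of 13 cases and higher in 1, together near the 39.5% called over all tested genes (median -0.06, or -0.09 without rdd YC4-R4 replicate 1). RCA, the activase of Rubisco, was at -0.21 ± 0.03 and RBCS1A, a small subunit of Rubisco, at -0.14 ± 0.03. RCA overlaps AT2G39725 and RBCS1A has close copies, so that both counts are uncertain. With limma and a spread weight per group 8 members were lower. Among genes encoded in the chloroplast 71 of 100 tested were lower and 0 higher, or 56 to 73 lower as single libraries were left out, an alternative chosen after seeing the data. DESeq2 called 50 lower and 0 higher. Some of these genes, and an annotated nuclear ribosomal RNA gene, differed between libraries of the same group. ATCG01210 stood at 126, 96.4 and 194 CPM in Col-0 control and 81.9, 24.1 and 98.6 CPM in rdd YC4-R4 (-1.02 ± 0.21), with replicate 2 far below the rest and the groups overlapping. Without rdd YC4-R4 replicate 2 its log2 fold change was -0.61, and its adjusted p with DESeq2 was 0.0746. ATCG00280 stood at 146, 167 and 137 CPM against 68.8, 83.5 and 129.7 CPM (-0.67 ± 0.11). The ribosomal RNA gene AT3G41768 stood at 1989, 1609 and 1542 CPM against 1262, 611 and 1516 CPM (-0.60 ± 0.14), again lowest in rdd YC4-R4 replicate 2. Without that library its log2 fold change was -0.30, its adjusted p with DESeq2 was 0.0634, and its part in the chloroplast counts was not tested. Genes of both organelles took 1.24% to 1.36% of the counts in Col-0 control and 0.950% to 1.295% in rdd YC4-R4, ranges that overlap. The mitochondrial genes had 6 of 26 lower and 0 higher, near the 21.0% of all tested genes called lower, and 3 lower without Col-0 control replicate 2 or with DESeq2. In the related supply of nitrogen, the nitrate reductase gene NIA2 stood at 1328, 1365 and 1350.5 CPM against 922, 861 and 840.4 CPM (-0.62 ± 0.04, adjusted p = 3.0e-17), and 4 of 9 assimilation genes were lower with 0 higher, or 1 higher without rdd YC4-R4 replicate 3. Over all tested genes 39.5% were called and 21.0% were called lower. NIA1 was at -0.09 ± 0.04, a call lost in 6 of the 12 alternative fits, 4 of them without Col-0 control replicate 1 or 2 or rdd YC4-R4 replicate 2 or 3 (adjusted p = 0.154, 0.113, 0.115 and 0.0506).

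The clock is a set of interlocked transcription loops in which morning factors repress evening genes and the reverse. Of 8 morning genes 7 were lower, with a median log2 fold change of -0.98, and none was higher. The share called lower over all tested genes, to set beside morning and evening genes alike, was 21.0%. CCA1 (AT2G46830), a central morning factor, stood at 29.7, 31 and 31.3 CPM in Col-0 control and 11.7, 11.8 and 10.8 CPM in rdd YC4-R4 (-1.42 ± 0.08, adjusted p = 7.3e-18). PRR9 stood at 3.26, 4.04 and 3.32 CPM against 0.536, 0.748 and 0.673 CPM (-2.42 ± 0.26, adjusted p = 1.1e-09) and LNK1 at 44.6, 47.1 and 46.2 CPM against 9.88, 10.4 and 8.08 CPM (-2.29 ± 0.08, adjusted p = 2.2e-23). The groups did not overlap in any of the 3, which was also so for 47.0% of all tested genes. LNK2 (-1.01 ± 0.05), PRR7 (-0.96 ± 0.05), LHY (-0.51 ± 0.08) and RVE8 (-0.43 ± 0.12) were lower too, and RVE1 was not called (-0.17 ± 0.09, adjusted p = 0.132). Evening genes were lower in 6 of 9 cases, with a median of -0.24, led by GI at 91.2, 85.4 and 87.9 CPM against 34.5, 42.6 and 39 CPM (-1.19 ± 0.06, adjusted p = 2.0e-19). TOC1, the evening partner of CCA1, was at -0.28 ± 0.04. LNK1 overlaps AT5G64160. For LHY both other groups stood lower than rdd YC4-R4, Col-0 YC4-R4 at 9.32 ± 0.496 CPM, rdd control at 10.7 ± 0.911 CPM.

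A G-box was present in the promoter window of 5 of the 8 morning genes (62.5%), against 7.24% of all windows of the same length. The windows of CCA1 and PRR9, the called morning genes with the lowest fold changes among these 5, are shown to place the element, with CACGTG in capitals. They lie at chr2:19245341-19245590 and chr2:19232357-19232606, both on the plus strand of TAIR10.1, and come from RefSeq. CCA1 has a single copy 193 bases before the start, and PRR9 has more than 1.
CCA1: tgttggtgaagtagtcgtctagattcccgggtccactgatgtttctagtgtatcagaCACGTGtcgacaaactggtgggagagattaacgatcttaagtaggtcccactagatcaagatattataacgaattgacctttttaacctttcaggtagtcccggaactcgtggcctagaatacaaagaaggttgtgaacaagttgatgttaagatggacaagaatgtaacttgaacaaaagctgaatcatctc
PRR9: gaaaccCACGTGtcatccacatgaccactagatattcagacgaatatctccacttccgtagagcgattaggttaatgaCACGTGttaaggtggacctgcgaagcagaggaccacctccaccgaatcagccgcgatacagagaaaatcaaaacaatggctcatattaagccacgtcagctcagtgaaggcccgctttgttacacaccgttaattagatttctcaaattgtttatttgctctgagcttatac

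**Figure D4:**
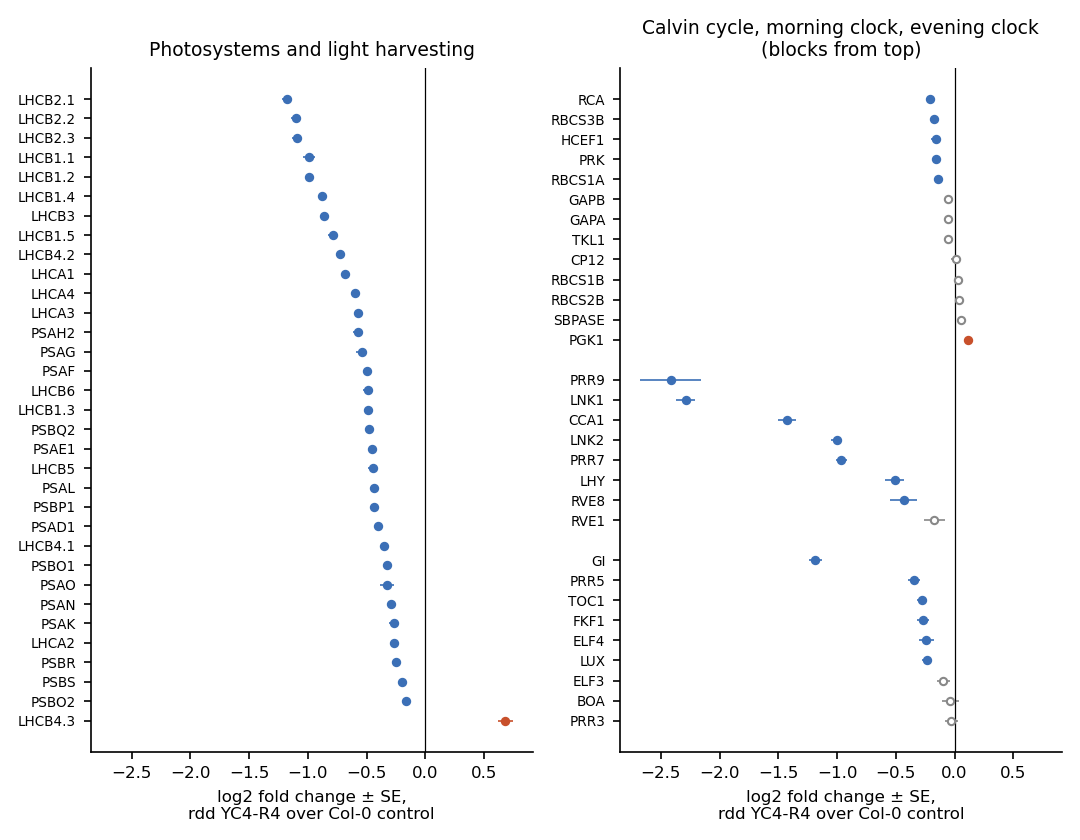
Log2 fold change of rdd YC4-R4 over Col-0 control with its standard error, for the tested genes of the photosystems and antennae (left) and of the Calvin cycle, morning clock and evening clock (right, blocks from the top); blue marks genes called lower, orange genes called higher and open grey circles genes not called. In the left panel 32 of 33 genes lie below 0 and LHCB4.3 above, and in the right panel the morning genes PRR9, LNK1 and CCA1 lie furthest from 0.

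Glucosinolates are sulfur-containing defence compounds of the cabbage family. Aliphatic glucosinolate genes were lower in 12 of 16 cases and higher in 2, with a median log2 fold change of -0.45. The shares to set beside this list, the indole branch and the sulfur genes are 21.0% lower and 18.5% higher, over all tested genes. CYP79F1, which begins the core pathway, stood at 165, 154 and 146 CPM in Col-0 control and 68.3, 71.2 and 72.3 CPM in rdd YC4-R4 (-1.14 ± 0.04, adjusted p = 4.0e-22). CYP79F2 was at -1.03 ± 0.08 and the regulators MYB28 and MYB29 at -0.34 ± 0.06 and -0.70 ± 0.09. MAM1, which elongates the side chain, was higher (0.28 ± 0.04), as was IMD1 (0.13 ± 0.04), and 1 member in place of 2 was higher without rdd YC4-R4 replicate 1. In the indole branch, which also leads to camalexin, 6 of 12 were lower and 2 higher. CYP79B2, at the branch point, stood at 122, 119.6 and 116 CPM against 48, 51.4 and 48.5 CPM (-1.27 ± 0.05, adjusted p = 1.7e-22), SOT16 was at -1.16 ± 0.04 and MYB34 at -0.57 ± 0.06. PAD3, the last enzyme of camalexin synthesis, was higher (0.93 ± 0.15, adjusted p = 4.4e-06) at 3.31, 3.14 and 3.44 CPM against 7.26, 5.50 and 6.11 CPM. Sulfur deficiency genes had 7 of 14 lower and 2 higher, among them the sulfate reduction genes APR1 (-0.64 ± 0.04) and APR2 (-0.49 ± 0.05), LSU2 (-0.91 ± 0.11) and, higher, the root sulfate transporter gene SULTR1;1 (1.29 ± 0.33).

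Flavonoid genes were higher in 6 of 13 cases and lower in 2, against 18.5% and 21.0% of all tested genes. CHS, the entry enzyme, stood at 33.4, 35.4 and 37 CPM against 51.6, 45 and 43.1 CPM (0.40 ± 0.06, adjusted p = 3.3e-06), the flavonol regulator MYB111 was at 0.99 ± 0.18 and the anthocyanin regulator PAP1 (AT1G56650) at -1.49 ± 0.30. Without Col-0 control replicate 1 or rdd YC4-R4 replicate 2, 1 and not 2 members were lower. Iron deficiency genes had 4 of 18 higher and 4 lower, a share near that over all tested genes. Leaving out any rdd YC4-R4 library or Col-0 control replicate 2 or 3 gave 1 or 2 higher members. OPT3, an iron transporter gene of the phloem, was at -0.55 ± 0.05 and the regulator PYE at -0.73 ± 0.12. Phosphate starvation genes had 4 of 11 higher and 2 lower, against 18.5% and 21.0% of all tested genes. The transporter gene PHT1;1 was at 0.48 ± 0.07, the acid phosphatase gene PAP17 at -0.79 ± 0.15 and the pyrophosphatase gene PS2 (AT1G73010) at -1.28 ± 0.26.

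Among genes of abscisic acid, drought and cold, 14 of 25 were lower and 4 higher, against 21.0% and 18.5% of all tested genes. The cold regulators fell most, with CBF2 (AT4G25470) at 18.195, 19 and 21 CPM in Col-0 control against 3.21, 1.55 and 1.54 CPM in rdd YC4-R4 (-3.24 ± 0.16, adjusted p = 6.3e-19), CBF1 at -2.90 ± 0.21 and CBF3 at -1.34 ± 0.25. Their target genes changed less, COR6.6 by -0.80 ± 0.04, COR15B by -0.26 ± 0.06 and RD29A by -0.44 ± 0.05. NCED3, the limiting enzyme of abscisic acid synthesis under drought, was at -1.24 ± 0.11, and P5CS1, an enzyme of proline synthesis, at -0.93 ± 0.04. Higher members were receptor genes: PYL4 stood at 49, 47.8 and 47.6 CPM against 118, 125 and 127 CPM (1.36 ± 0.04, adjusted p = 2.7e-24), PYL6 at 2.12, 2.24 and 2.60 CPM against 8.45, 9.29 and 10.6 CPM (2.04 ± 0.14, adjusted p = 2.2e-14) and PYL5 was at 0.96 ± 0.06. The groups did not overlap for PYL4 and PYL5, as was required of PYL6 and was met by 47.0% of all tested genes. RAB18 (AT5G66400), a late response gene, was also higher (0.39 ± 0.10). Heat shock and chaperone genes were lower in 8 of 12 cases and higher in 1, with HSP70 at 38, 40.8 and 40.6 CPM against 9.29, 8.65 and 8.66 CPM (-2.17 ± 0.08, adjusted p = 4.6e-23), HSP90.1 at -1.17 ± 0.07 and the regulator HSFA2 at -2.30 ± 0.53. The 1 higher member, HSFA7A, was not called without Col-0 control replicate 2 or rdd YC4-R4 replicate 2.

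Myo-inositol, named in the series title, is made from glucose 6-phosphate by the MIPS enzymes and broken down by the MIOX oxygenases. Of 19 tested genes of its synthesis, transport, breakdown and use 7 were lower and 3 higher, against 21.0% and 18.5% of all tested genes. MIPS1 (AT4G39800), a synthase gene, stood at 180.1, 191 and 185 CPM in Col-0 control and 103, 107 and 107 CPM in rdd YC4-R4 (log2 fold change -0.81 ± 0.04, adjusted p = 2.6e-19), without overlap, like 47.0% of all tested genes. Its level in rdd control was 106 ± 3.31 CPM, next to rdd YC4-R4, and in Col-0 YC4-R4 154 ± 1.52 CPM. MIPS3 was lower by less (-0.33 ± 0.06) and MIPS2 was not called (-0.18 ± 0.08, adjusted p = 0.063), except without rdd YC4-R4 replicate 2 (adjusted p = 0.0252). MIOX2 stood at 11.5, 13.7 and 14 CPM against 32.5, 34.1 and 35.3 CPM (1.38 ± 0.07, adjusted p = 3.7e-18) and MIOX4 at 0.207, 0.449 and 0.423 CPM against 1.43, 1.66 and 0.817 CPM (1.84 ± 0.39, adjusted p = 2.5e-04), both higher in every rdd YC4-R4 library. MIOX1 was lower (-0.42 ± 0.09). The galactinol synthase genes GOLS1 and GOLS2, which use myo-inositol to make raffinose-type sugars, were lower (-0.48 ± 0.09 and -1.08 ± 0.16). The transporter genes INT1, INT2 and INT4 were not called (-0.04 ± 0.06, -0.14 ± 0.29 and 0.13 ± 0.07; adjusted p = 0.589, 0.74 and 0.168). MIPS2, MIPS3 and GOLS1 overlap another tested gene.

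Sugar-starvation and starch genes went both ways, 6 of 17 higher and 6 lower. AT2G33830, a dormancy and auxin associated gene, stood at 398, 396 and 403 CPM against 72.1, 53 and 64.8 CPM (-2.66 ± 0.06, adjusted p = 4.4e-30), while its relative DRM1 was higher (0.48 ± 0.04). DIN10, a raffinose synthase family gene induced in the dark, stood at 859.8, 835 and 834 CPM against 1425, 1412 and 1395 CPM (0.74 ± 0.03, adjusted p = 1.0e-20). The starch breakdown genes BAM3 (AT4G17090, -0.44 ± 0.04), SEX1 (-0.32 ± 0.03) and DPE2 (-0.35 ± 0.04) were lower. Among 8 senescence genes 2 were higher, or 0 without Col-0 control replicate 1, and 2 were lower, the largest change being that of the transcription factor gene NAP, at 12.9, 16.8 and 14.4 CPM against 4.05, 2.62 and 3.13 CPM (-2.18 ± 0.15, adjusted p = 6.6e-15). The share called over all tested genes was 39.5%.

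Cell wall expansion genes were higher in 7 of 13 cases and lower in 2, against 18.5% and 21.0% of all tested genes. Expansins loosen the wall, and EXPA1 stood at 86.5, 89.3 and 87.9 CPM in Col-0 control against 267, 300 and 276 CPM in rdd YC4-R4 (1.68 ± 0.04, adjusted p = 7.8e-28). EXPA8 went the other way, at 45.6, 55.4 and 52.2 CPM against 11, 12.6 and 11.5 CPM (-2.12 ± 0.08, adjusted p = 1.5e-22). The groups overlapped in neither gene, a lack of overlap that 47.0% of all tested genes shared. EXPA10 (0.62 ± 0.06) and the xyloglucan enzyme gene XTH24 (0.63 ± 0.04) were higher, unlike TCH4 of the same enzyme family. Auxin response genes had 4 of 13 higher and 3 lower, where 39.5% of all tested genes were called. SAUR15 (1.22 ± 0.21) and GH3.3 (0.96 ± 0.15) were higher and the repressor gene IAA6 (-1.73 ± 0.14) lower. Of the genes named in these lists without such a remark, DRD1, ERS1, APR1, IMD1, PAP17, P5CS1, COR15B, RAB18 and BAM3 also overlap another tested gene.

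**Figure D5:**
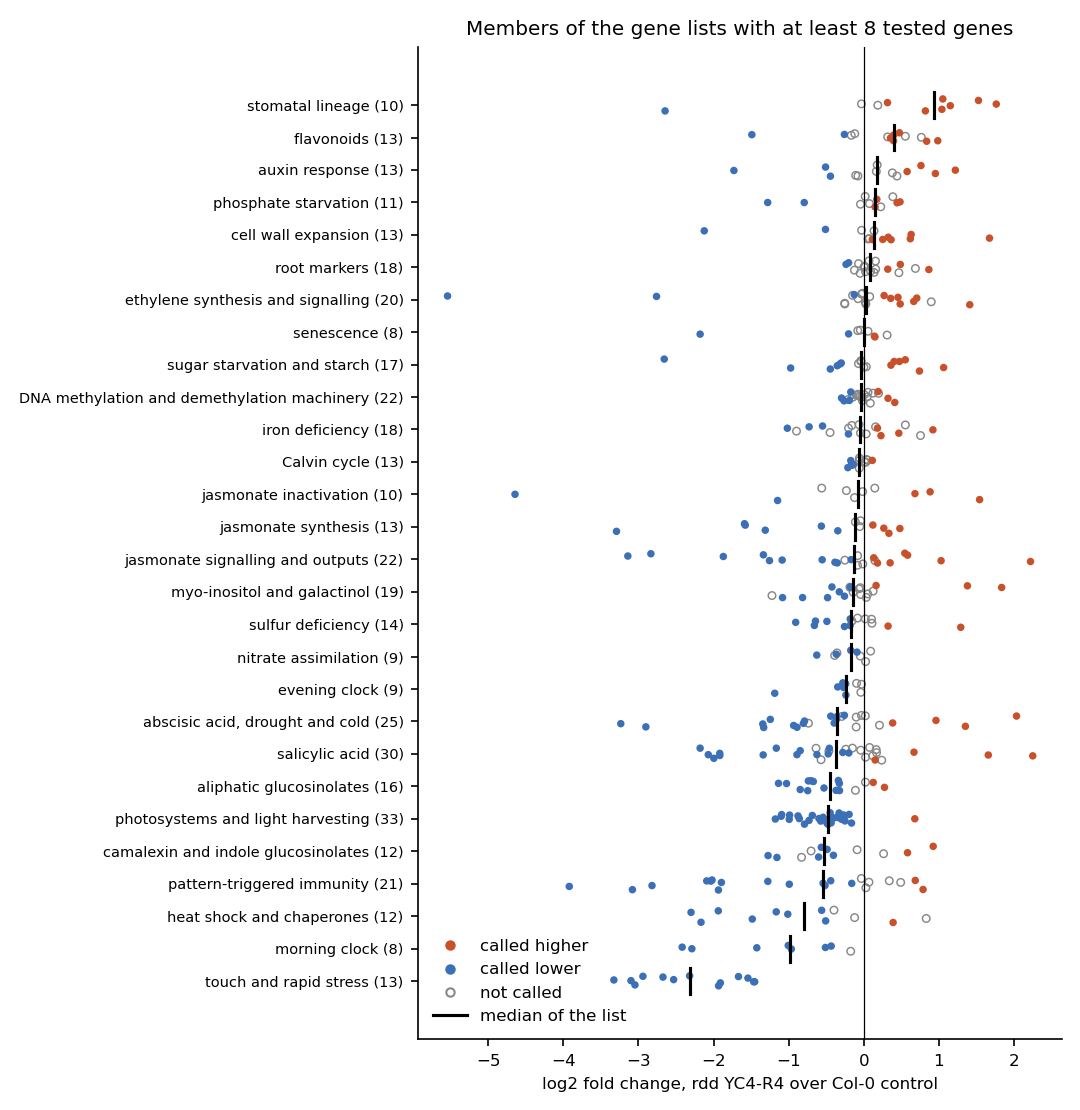
Each point is a tested member of a gene list with at least 8 tested genes, at its log2 fold change of rdd YC4-R4 over Col-0 control on the x axis; filled points were called, open points were not, black bars are list medians and numbers in brackets are tested members. The touch and rapid stress list lies furthest below 0 with a median of -2.32, and the stomatal lineage list has the highest median, 0.93, with EPF2 far below it. The lists were chosen with earlier results of these data known.

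Markers of plant parts were read beside these lists, since whole plants were sampled. Of 18 root markers 3 were higher and 2 lower, a smaller called share than the 39.5% over all tested genes, and 13 were not called. The summed level of the root markers was 1397 to 1430 CPM in Col-0 control and 1241 to 1269 CPM in rdd YC4-R4. Most of this sum was PYK10, a root and hypocotyl glucosidase gene, at 1128, 1155 and 1135 CPM against 983, 961 and 960.3 CPM (-0.24 ± 0.03, adjusted p = 1.3e-07), which overlaps AT3G09250. Of the higher root markers, the EXPA7 call was lost without rdd YC4-R4 replicate 2 (adjusted p = 0.106) and the MYB36 call without Col-0 control replicate 2 or rdd YC4-R4 replicate 1 (adjusted p = 0.0678 and 0.0680), and also with DESeq2 (0.0768). The number of lower root markers was 1 in place of 2 without any of 5 of the libraries, all but Col-0 control replicate 3. Of 4 tested floral markers 2 were higher, SOC1 (0.29 ± 0.06, adjusted p = 1.8e-04) and FT (0.70 ± 0.26, adjusted p = 0.0307), and the list summed to 31.5 to 34.5 CPM against 38.8 to 41.4 CPM. The FT call was lost without Col-0 control replicate 1 or 2 or rdd YC4-R4 replicate 1 or 2 (adjusted p = 0.135, 0.100, 0.111 and 0.0587), and also with DESeq2 (0.0972). The part of these shifts in the other lists was not tested.

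Called genes were spread over the genome. The share called was 38.0% to 41.1% on the 5 nuclear chromosomes, against 39.5% over all tested genes. Within 1 Mb of ROS1, DML2 and DML3 it was 36.7%, 37.5% and 40.6%. On chromosome 2 there were 730 lower and 494 higher genes, and on chromosome 3 777 lower and 837 higher. The kinase gene CRK40, lower, and CPK22 and the pseudogene AT4G04410 (2189515 to 2193763), both higher, lie between bases 2189515 and 2392989 of chromosome 4. They were set side by side after their values were seen. Windows of 200 kb held a median of 2 and at most 8 genes changed 2-fold or more. The annotated span of the gene, introns included, had a median of 1803 bases for genes 2-fold or more lower, 1734 bases for those higher and 2384 bases over all tested genes.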

How the data were processed

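Messenger RNA of 12 libraries, 3 in each of 4 groups, was measured by RNA sequencing. The authors deposited 1 table of raw counts per gene, and per the submitters' processing notes the tools were Trimmomatic 0.36, HISAT2 2.1.0 and HTSeq 0.9.1 with the TAIR10 build. The sources used here do not give the annotation release or the strand setting of the counting, so genes that overlap another tested gene, 1846 of the called ones, have uncertain counts. Of 33602 genes, 6493 had 0 counts in every library and 20651 passed edgeR's filter on low counts, which held 99.96% of all counts.

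From the counts edgeR 4.0.16 (R 4.3.3) fitted 4 group means to the 12 libraries with TMM scaling and a quasi-likelihood test of rdd YC4-R4 against Col-0 control, with 8 residual degrees of freedom. P-values were adjusted by Benjamini and Hochberg's method over 20651 genes and called under 0.05. Errors of log2 fold changes are standard errors, taken as the size of the change over the square root of the test's F statistic. Errors of CPM are SD. A prior count of 2 was set for log2 CPM values only, and fold changes were fitted with edgeR's default prior count. The alternatives were DESeq2 size factors, DESeq2 1.42.0, no filter on low counts, the 6 libraries alone, limma 3.58.1 with a spread weight per group, the replicate number as a block, and each of the 6 libraries left out. The fit was tested on simulated counts.

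Names, coordinates and promoters came from RefSeq's TAIR10.1 annotation, which matched 32835 gene IDs, and from its genome; 1 promoter window is not reported here. The members and the 32 gene lists were chosen with earlier results of these data known. The naming rule took the demethylase genes, the 12 highest and 12 lowest fold changes without overlap between the groups and with an average log2 CPM of at least 1, the 8 most abundant genes changed 2-fold or more, 4 genes per list by adjusted p, and genes at 0 counts in 1 group with at least 30 counts in each library of the other. It gave 154 genes. A further 98 named in the text were chosen after their values were seen.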

Additional observations from a re-analysis of the deposited data

How the results depend on the processing

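All counts of called genes over the whole table stayed within 1.5 times the values reported, under every alternative tried. Leaving out 1 of the 6 libraries gave 3097 to 3663 higher and 3900 to 4247 lower genes, and at 2-fold or more 239 to 270 and 781 to 825. DESeq2 called the fewest, 2846 higher and 3842 lower, so that 42.6% of its called genes were higher, against 46.9%. Genes called in the same direction as reported numbered 6633 to 8026. With the replicate number as a block 3740 genes were higher and 4304 lower, and no named gene changed its call. The numbers do not pair the libraries, since correlations of their deviations lay between -0.0201 and 0.0189. Of 3023 values of the 252 named genes under the alternatives, 2978 kept their direction and call, 28 lost the call, 2 gained it and 15 changed sign. Apart from AT5G36790, which ran from -0.59 without rdd YC4-R4 replicate 2 to 1.65 without rdd YC4-R4 replicate 3, the changes of sign were in genes not called. ERF1 was -0.23 with limma and ran from -0.54 to 0.50 as single libraries were left out. In the same way SEP3, a floral marker gene, ran from -0.13 to 0.38, INT2 from -0.27 to 0.01, JAZ4 from -0.07 to 0.29, ICS1 from -0.03 to 0.07, JAZ2 from -0.05 to 0.01, EPFL9 from -0.16 to 0.09 and EFR from -0.09 to 0.07. The causes were not tested. Counts of called list members moved by over 1.5 times in 33 of 768 cases. Depth limits genes with few counts, as in the pseudogenes at 0, and the wider spread of rdd YC4-R4 limits small changes.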

Other observations

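Runs of neighbouring genes with related annotation were lower together in rdd YC4-R4, picked out here after their values were seen. On chromosome 1, AT1G72900, AT1G72910, AT1G72920 and AT1G72940, annotated with the TIR domain of intracellular immune receptors, had log2 fold changes of -1.80 ± 0.07, -1.93 ± 0.07, -2.64 ± 0.10 and -2.60 ± 0.07. AT1G72940 stood at 76.1, 76.3 and 74.7 CPM in the Col-0 control libraries and 14.3, 10.8 and 12.5 CPM in those of rdd YC4-R4. On chromosome 2, AT2G32200 and AT2G32210, annotated as cysteine-rich transmembrane proteins, were at -3.66 ± 0.20 and -3.15 ± 0.15. On chromosome 5 the cupin superfamily genes AT5G39110, AT5G39120 and AT5G39130 were at -3.86 ± 0.50, -3.56 ± 0.34 and -1.66 ± 0.45. The 200 kb windows around the runs on chromosomes 1 and 2 held 8 genes each that changed 2-fold or more, and that of the cupins 6. All of these were lower except 1 on chromosome 1, which was higher. The changed genes of the chromosome 1 window also included AT1G72890 and AT1G72950, so that the genes named above are a selection. Neighbouring genes with similar sequence may share reads, which leaves their separate values uncertain.

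Libraries of rdd YC4-R4 differed among themselves in more genes than those of Col-0 control. Among 15692 genes at 5 CPM or more, the number at least 0.5 log2 units from the mean of the other libraries of the group was 16, 15 and 24 in Col-0 control and 149, 101 and 55 in rdd YC4-R4. In rdd YC4-R4 replicate 1, 122 of the 149 genes were lower. Of 22 genes whose annotation names extensin, many of them in the Pollen Ole e 1 allergen and extensin family and some receptor kinases, 16 had their lowest level of the 6 libraries in that replicate. This group was chosen after its values were seen, and the share of all 15692 genes lowest in that replicate was not counted. The gene AT5G36790 stood at 6.73, 54.5 and 6.44 CPM in rdd YC4-R4, so that its log2 fold change (1.19 ± 0.40, adjusted p = 0.0184) rests on replicate 2, without which it was -0.59 (adjusted p = 0.00666).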
